A study of Drosophila melanogaster with 13 samples.

Results

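The genes eyes absent (eya) and dachshund (dac) both lie on chromosome arm 2L of Drosophila melanogaster. Their surroundings were taken as a window from 6515000 to 6560000 for eya and a window from 16455000 to 16500000 for dac, in the dm3 build. All merged open chromatin peaks in these windows were used, 17 around eya and 25 around dac, together 42 of the 36506 merged peaks with counts. They are numbered along the arm, from eya peak 1 to 17 and from dac peak 1 to 25. Among merged peaks, the members were taken by position, and whether a peak acts on eya or dac was not measured. A merged peak exists only where some sample called it, so a peak that only some groups called was more likely to be high in those groups. By the gene order of a later genome release in RefSeq, CG31637 and lncRNA:CR44775 precede eya and lncRNA:CR44776, IFT52 and COX5B follow it, while Idgf2 and Idgf3 precede dac and Nepl8, lncRNA:CR44994 and Tpr2 follow it. Placement of the peaks in exons, introns or promoters was not analysed here.

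Both genes belong to the retinal determination network, a set of nuclear factors that gives cells of the eye-antennal disc their eye fate. Eya is a phosphatase and transcriptional coactivator that works with the homeodomain protein Sine oculis (So). Dac is a nuclear protein of the Ski/Sno family that acts downstream of Eya and So and also feeds back on the network. Open chromatin marks stretches of DNA that are free of nucleosomes, such as promoters and enhancers.

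Open chromatin was profiled in whole Drosophila eye-antennal discs by ATAC-seq, which uses a transposase, and by FAIRE-seq, which recovers DNA that formaldehyde does not tie to protein. The tumor samples are RasV12; scrib-/- discs, with 1 early and 1 late sample per technique. In them, eyFlp makes clones on the FRT82 arm in a y,w background. The clones are homozygous for scrib2, lack Tub-Gal80 and express UAS-RasV12 and UAS-GFP through act>y+>Gal4. The 2 Upd samples, both ATAC-seq, are discs in which GMR-gal4 drives UAS-UPD:GFP, a ligand of the JAK/STAT pathway. Wild types are w;;FRT82, DGRP-208 and Optix-GFP for ATAC-seq and FRT82 and CantonS for FAIRE-seq. A CTCF ChIP-seq sample of CantonS discs with its input gives the binding sites of an insulator protein. The labels give 10 discs per ATAC-seq sample and 200 discs per FAIRE-seq sample, and each sample is 1 library.

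Several features limit these groups. For late tumors in ATAC-seq, the study's methods name 3 whole tumors as input in place of 10 discs, so input and stage cannot be told apart there. The tumor discs are mosaics, in which clone cells and their neighbours were measured together, and GMR-gal4 is active in the eye part of the disc behind the morphogenetic furrow. All larvae carry the label of the wandering stage, but late tumors came from larvae kept for days longer because they do not pupate, so tumor stage and larval age cannot be told apart. In bulk discs, fewer cells with a region open and less opening per cell cannot be told apart either. The wild types are separate strains, so p-values here rest on the spread between strains and libraries. Where early and late tumors were pooled, that spread also holds the difference between the stages.

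Between 2375435 and 10871706 reads per sample fell in the merged peaks. Levels are given as CPM, that is, reads on a peak per 1000000 reads in all merged peaks of the sample after TMM scaling, with scaling factors from 0.853 to 1.23. Values of ATAC-seq wild types follow the order FRT82, DGRP-208 and Optix-GFP, those of FAIRE-seq wild types the order FRT82 and CantonS, and tumor values the order early and late. Log2 fold changes are given ± 1 SE and come from the quasi-likelihood test of edgeR. P-values were adjusted by the Benjamini-Hochberg method over all merged peaks, and an adjusted p under 0.01 counts as passing. As a check of the tissue, a peak on an eye enhancer of so (2R, 3318737 to 3320032) had 117 to 222 CPM in ATAC-seq tumors and 150 to 177 CPM in ATAC-seq wild types, and one on an enhancer of Optix (2R, 3926410 to 3926959) had 56.4 to 99.4 CPM in tumors and 64.1 to 120.1 CPM in wild types. Both peaks were thus open in tumors and wild types. A second peak on the Optix enhancer (2R, 3925690 to 3926128) differed, with 48.0 to 51.6 CPM in ATAC-seq tumors and 5.91 to 8.84 CPM in wild types.

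The peaks differed widely in how many samples had called them. The eya peaks were 114 to 840 bp long with a median of 354 bp and covered 6406 bp in all, and the dac peaks were 109 to 1077 bp long with a median of 305 bp and covered 8949 bp. The median of all merged peaks was 269 bp. A peak in the sample's own peak list overlapped the merged peak in each of the 11 samples for 4 eya and 7 dac peaks, where this held for 24.7% of all merged peaks. In contrast, 2 eya and 7 dac peaks were called in 1 sample only (20.9% of all merged peaks). No tumor called 7 eya and 7 dac peaks (29.0% of all merged peaks), and no wild type called 2 eya and 9 dac peaks (20.3% of all merged peaks).

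**Figure D1:**
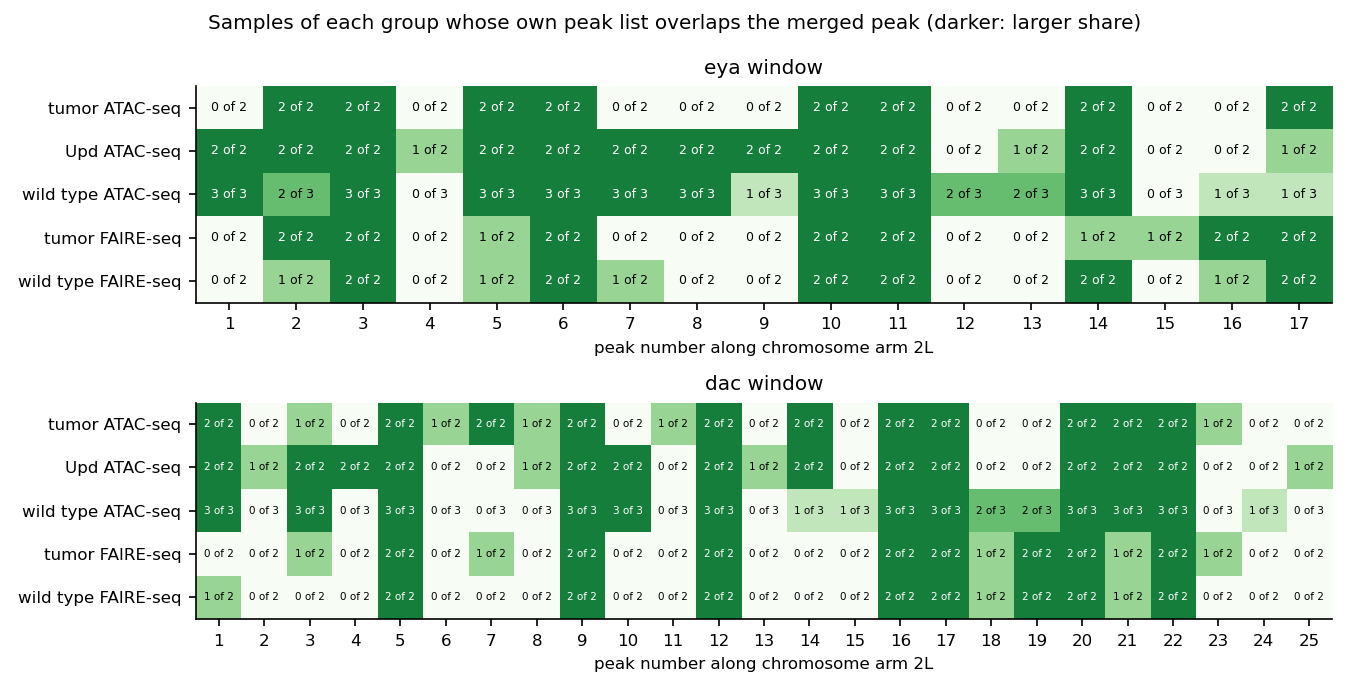
Number of samples in each group (rows) whose own peak list overlaps each merged peak (columns) of the eya and dac windows, written as n of n. Among others, eya peaks 7 and 8 and dac peak 10 were called in 0 of 2 tumors by either technique, in 2 of 2 Upd samples and in 3 of 3 ATAC-seq wild types.

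In wild type discs, each window had a few peaks of high accessibility among many low ones. Of the eya peaks, peak 6 (6535958 to 6536506) was the highest, with 142 and 157 CPM in ATAC-seq tumors, 109 and 129.6 CPM in Upd samples and 132, 120.0 and 124 CPM in wild types. FAIRE-seq gave 65.1 and 63.6 CPM at eya peak 6 in tumors, against 71.7 and 61.1 CPM in wild types. This peak was called in every sample, and neither its combined tumor change (log2 0.10 ± 0.14, adjusted p = 0.62 with edgeR) nor that in ATAC-seq alone (0.26 ± 0.20, adjusted p = 0.336 with edgeR) passed the threshold. Set per length, eya peak 6 had a mean of 228 CPM per kb in ATAC-seq wild types and 121 CPM per kb in FAIRE-seq wild types.

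Around dac, the highest peak was peak 16 (16485591 to 16486667), which is also the longest of all 42. It had 456 and 344 CPM in ATAC-seq tumors, 275 and 238 CPM in Upd samples and 260.1, 249 and 209.6 CPM in wild types. By FAIRE-seq it had 155 and 135 CPM in tumors, against 162 and 161 CPM in wild types. Both ATAC-seq tumors were thus above all ATAC-seq wild types, and both FAIRE-seq tumors below both FAIRE-seq wild types. Per length, dac peak 16 had 222 CPM per kb in ATAC-seq wild types, close to the value of eya peak 6. Only 76 bp separate it from dac peak 17 (16486744 to 16487001), with 30.5 to 54.0 CPM over all samples.

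Next in height among eya peaks in ATAC-seq wild types were peaks 14 and 5, and among dac peaks 12 and 20. At eya peak 5 (6533629 to 6534468), tumors had 52.9 and 35.5 CPM, Upd samples 71.2 and 66.8 CPM and wild types 75.8, 86.2 and 71.7 CPM by ATAC-seq. FAIRE-seq values were 37.0 and 26.9 CPM in tumors and 47.1 and 33.9 CPM in wild types. The ATAC-seq ranges of tumors and wild types did not overlap and the FAIRE-seq ranges did, and the combined change of -0.63 ± 0.20 had an adjusted p of 0.0245 with edgeR, short of the threshold. At dac peak 12 (16477460 to 16478094), 85.0 and 114 CPM in ATAC-seq tumors stood against 68.1, 63.6 and 82.2 CPM in wild types, and at dac peak 20 (16491450 to 16492211) 73.3 and 69.4 CPM stood against 63.0, 67.4 and 71.7 CPM. Neither dac peak passed in the combined comparison, with changes of 0.33 ± 0.18 and 0.17 ± 0.16.

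**Figure D2:**
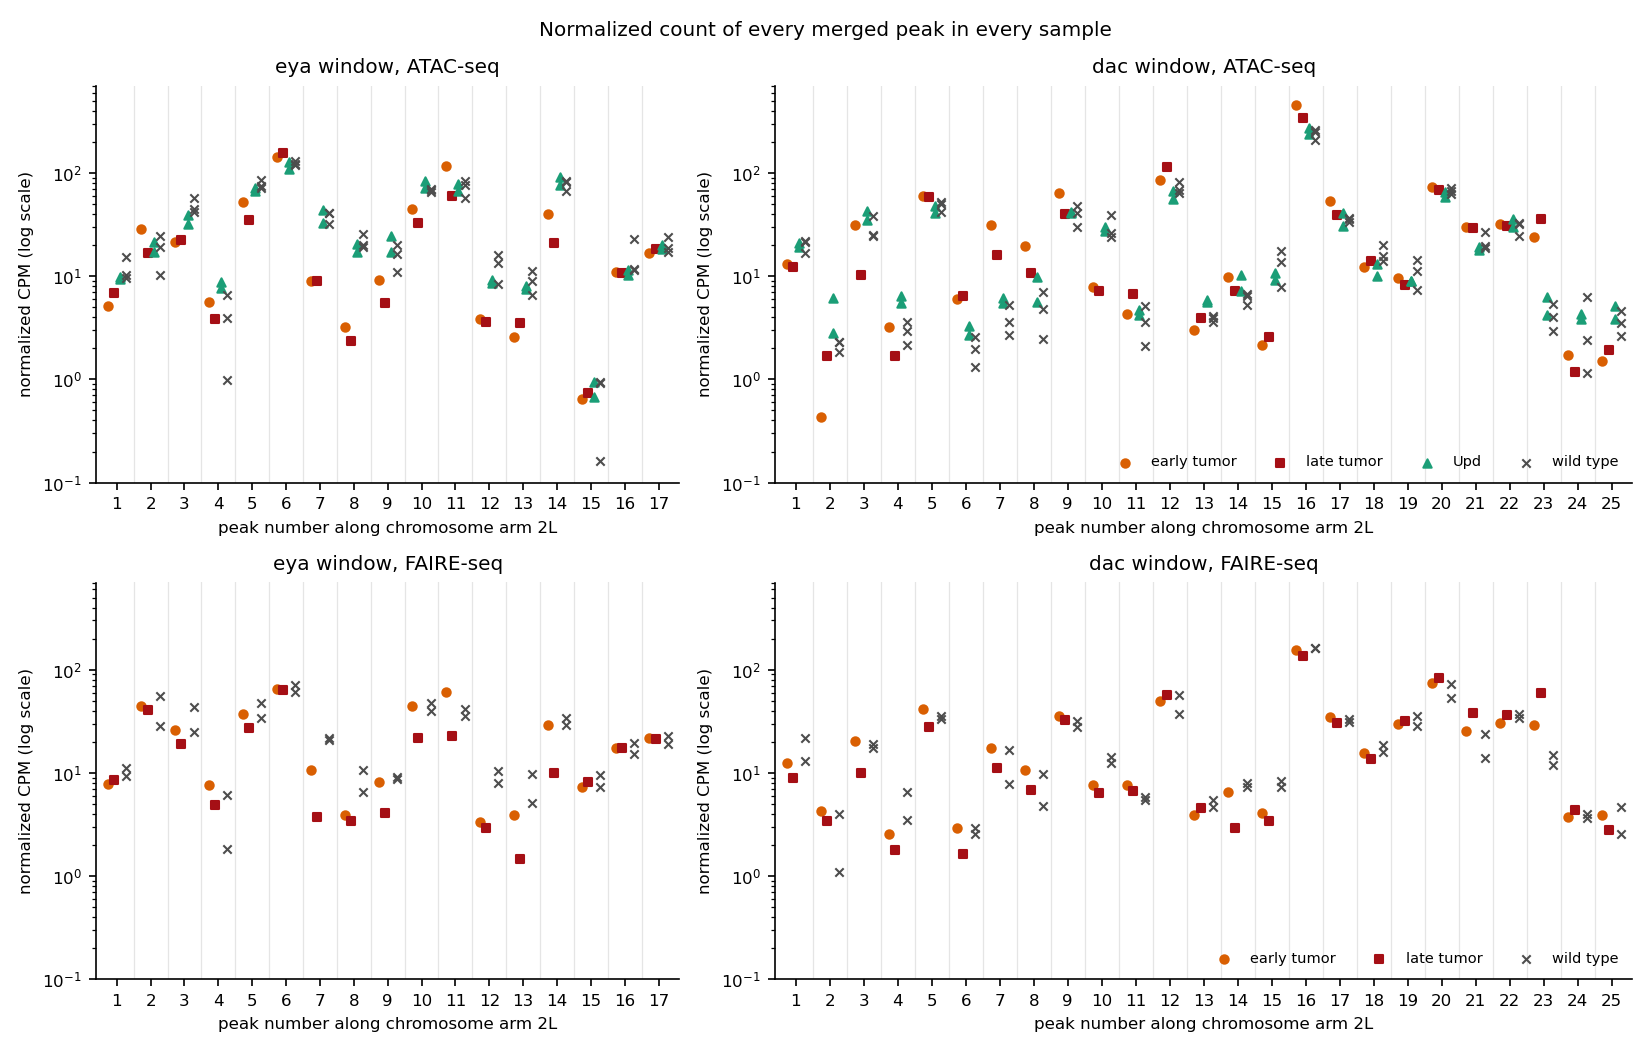
CPM of each peak (log axis) along the eya window (left, peaks 1 to 17) and the dac window (right, peaks 1 to 25), for ATAC-seq above and FAIRE-seq below. Symbols mark early tumor, late tumor, Upd and wild type samples. Eya peak 6 and dac peak 16 stand highest in ATAC-seq wild types, and the tumor symbols lie below those of the wild types at eya peaks 7, 8, 12, 13 and 14 in both techniques.

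The main comparison set 4 tumors against 5 wild types of both techniques, with a term for the technique. Peaks around eya were lower in tumors where they changed: 6 of 17 fell (peaks 3, 7, 8, 12, 13 and 14) and 0 rose. Around dac, 2 of 25 fell (peaks 10 and 15) and 1 rose (peak 23). Of all merged peaks, 12.5% fell and 11.6% rose. No tumor had called eya peaks 7, 8, 12 and 13 or dac peaks 10 and 15, and no wild type had called dac peak 23. Their place among the merged peaks favours the directions seen. The median log2 fold change was -0.65 over the eya peaks and -0.02 over the dac peaks, beside -0.03 over all merged peaks. With edgeR, 10 of the 17 eya peaks had an unadjusted p under 0.05, all with a negative fold change, where this held for 46.0% of all merged peaks, 24.8% with a negative one. DESeq2 also called 0 eya peaks higher. Tumors lay below wild types without overlap in both techniques at 7 eya and 4 dac peaks (18.3% of all merged peaks), and above them in both at 0 eya and 2 dac peaks (17.0% of all merged peaks).

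**Figure D3:**
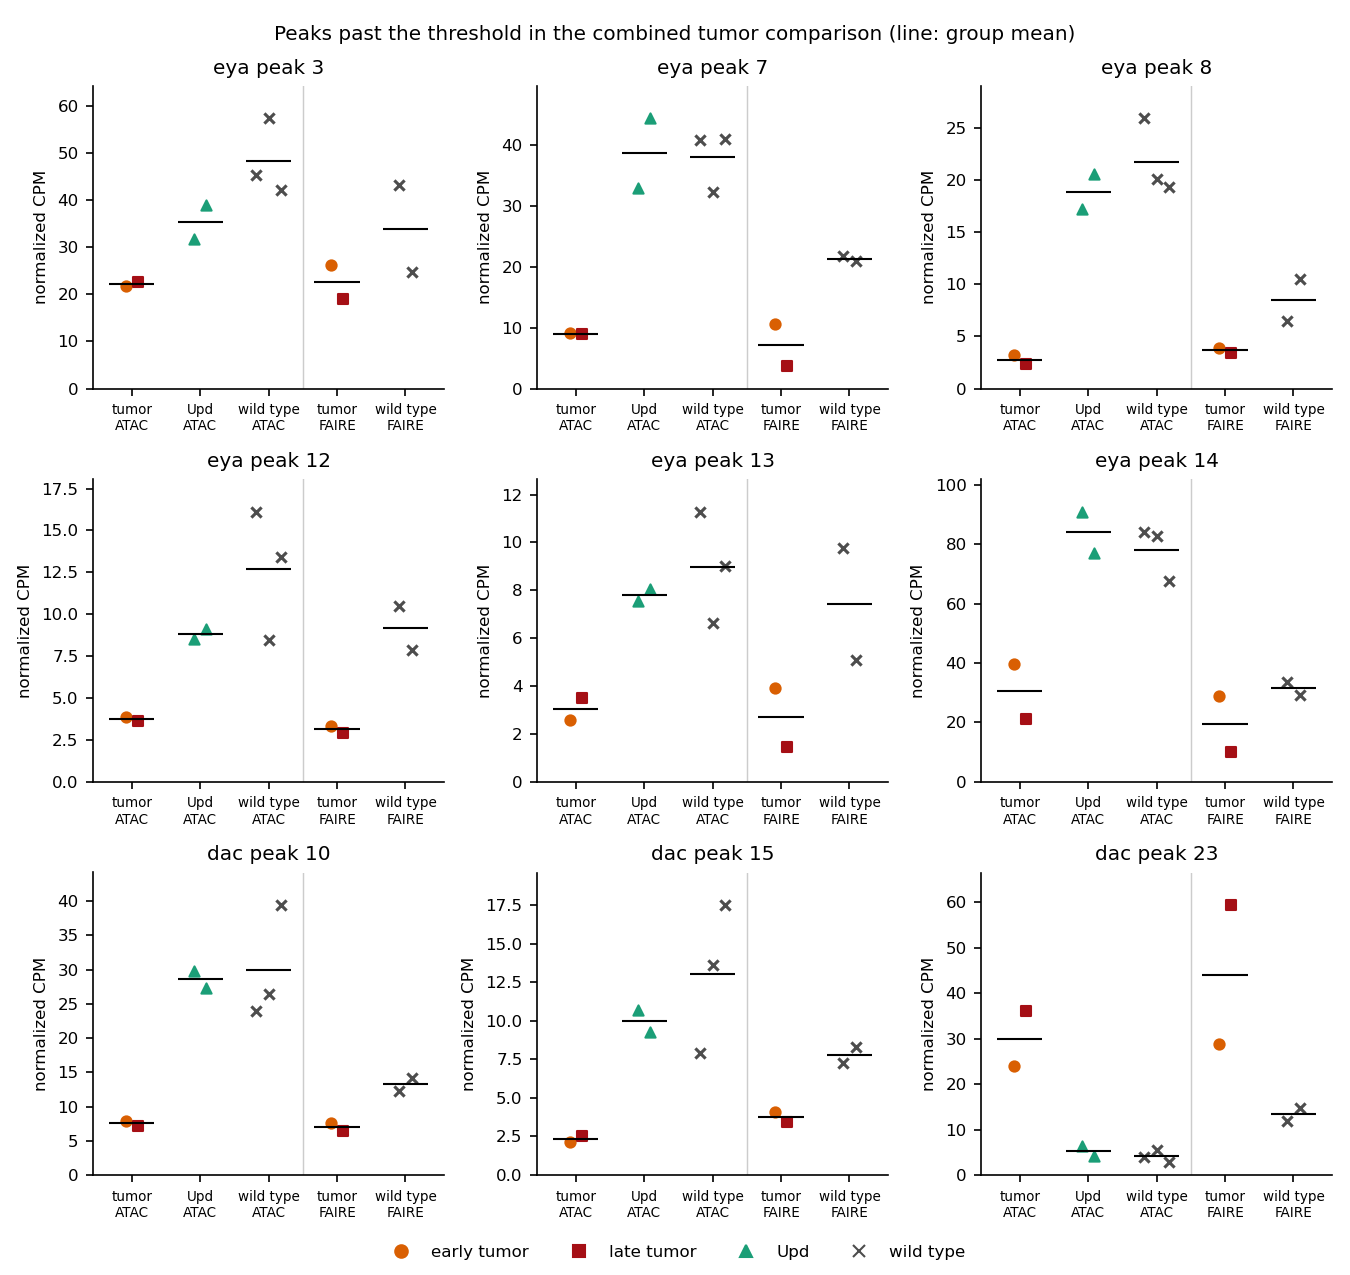
CPM per sample of the 9 peaks past the threshold in the combined comparison of tumors and wild types, in columns for ATAC-seq tumors, Upd samples and wild types and for FAIRE-seq tumors and wild types. Points are samples and lines group means. In each of the 8 peaks that fell, both ATAC-seq tumors lie below the 3 ATAC-seq wild types, and in dac peak 23 both lie above them.

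The clearest loss around eya was at 2 neighbouring peaks. At eya peak 7 (6537798 to 6538153), ATAC-seq gave 9.03 and 8.93 CPM in tumors, 32.8 and 44.3 CPM in Upd samples and 40.7, 32.2 and 40.9 CPM in wild types. The FAIRE-seq tumors had 10.6 and 3.75 CPM there, against 21.7 and 20.8 CPM in FAIRE-seq wild types. All tumors were thus below all wild types of the same technique, while the range of the Upd samples overlapped that of the wild types. In the combined fit, eya peak 7 fell by 1.88 ± 0.27 on the log2 scale (adjusted p = 0.000151 with edgeR). This is the peak of the window that a table of the study, made from these samples, pairs with eya, so its direction is no independent evidence.

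At eya peak 8 (6541774 to 6542028), tumors had 3.23 and 2.34 CPM by ATAC-seq, against 17.3 and 20.6 CPM in Upd samples and 25.9, 20.1 and 19.3 CPM in wild types. By FAIRE-seq the values were 3.91 and 3.43 CPM in tumors and 6.52 and 10.6 CPM in wild types. Tumors again did not overlap wild types in either technique, and eya peak 8 fell by 2.23 ± 0.36 (adjusted p = 0.000316 with edgeR). Neither peak was called in any tumor.

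A pair of short peaks, 418 bp apart, showed a like pattern at lower levels. At eya peak 12 (6552129 to 6552310), ATAC-seq tumors had 3.87 and 3.61 CPM, Upd samples 8.54 and 9.13 CPM and wild types 16.1, 8.48 and 13.4 CPM. At eya peak 13 (6552729 to 6552869), ATAC-seq tumors had 2.58 and 3.51 CPM, Upd samples 7.54 and 8.04 CPM and wild types 11.3, 6.62 and 9.0 CPM. In FAIRE-seq, tumors had 3.33 and 2.94 CPM at eya peak 12 and 3.91 and 1.47 CPM at eya peak 13, against 10.5 and 7.89 CPM and 9.78 and 5.07 CPM in wild types. At both peaks every tumor was below every wild type of its technique. Eya peak 12 was called in 2 of 3 ATAC-seq wild types and nowhere else, and eya peak 13 in 2 of 3 ATAC-seq wild types and 1 Upd sample. The place of both among the merged peaks thus favours a fall in tumors. The combined changes were -1.68 ± 0.28 for eya peak 12 (adjusted p = 0.000388 with edgeR) and -1.51 ± 0.34 for eya peak 13 (adjusted p = 0.00303 with edgeR).

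Eya peaks 14 and 3 had higher levels in wild types than these pairs. At eya peak 14 (6554267 to 6554873), ATAC-seq tumors had 39.8 and 21.2 CPM, Upd samples 91.0 and 77.0 CPM and wild types 84.1, 82.8 and 67.6 CPM. By FAIRE-seq, tumors had 28.8 and 9.95 CPM at eya peak 14, against 33.7 and 29.3 CPM in wild types. The late tumor was below the early one in both techniques, and the early FAIRE-seq tumor was just below the lower wild type. At eya peak 3 (6527991 to 6528471), the values were 21.7 and 22.6 CPM in ATAC-seq tumors, 31.8 and 39.0 CPM in Upd samples and 45.3, 57.4 and 42.2 CPM in wild types, and 26.2 and 19.1 CPM in FAIRE-seq tumors against 43.1 and 24.8 CPM in wild types. Here the FAIRE-seq ranges overlapped, as the early tumor exceeded CantonS. Eya peak 14 fell by 1.10 ± 0.29 (adjusted p = 0.00808 with edgeR) and eya peak 3 fell by 0.90 ± 0.22 (adjusted p = 0.00594 with edgeR).

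Calls of the 6 eya peaks rested to different degrees on single libraries. Eya peaks 7, 8 and 12 passed in all 15 alternative settings, eya peak 13 in 10, eya peak 3 in 8 and eya peak 14 in 5. Without the early ATAC-seq tumor, the late ATAC-seq tumor, the FRT82 FAIRE-seq wild type or the late FAIRE-seq tumor, 3 eya peaks passed in each case.

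Other eya peaks stayed level or short of the threshold. At eya peak 10 (6546851 to 6547327), ATAC-seq tumors had 45.4 and 33.0 CPM, against 70.9, 69.0 and 65.5 CPM in wild types, and the combined change was -0.65 ± 0.22 (adjusted p = 0.029 with edgeR). Its neighbour 232 bp away, eya peak 11 (6547560 to 6548312), had 118 and 59.4 CPM in ATAC-seq tumors, against 84.0, 76.4 and 57.9 CPM in wild types. For eya peak 11 the early tumor was above all ATAC-seq wild types and the late tumor within their range. By FAIRE-seq it had 61.2 CPM in the early and 22.7 CPM in the late tumor, against 41.3 and 35.5 CPM in wild types. The combined change of 0.19 ± 0.27 pools an early change of 0.68 ± 0.21 and a late change of -0.52 ± 0.22, neither of which passed. The 3 clustered peaks at the end of the window, eya peaks 15 to 17, had combined changes of -0.08 ± 0.36, -0.29 ± 0.26 and -0.10 ± 0.19.

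Around dac, changes went in both directions. At dac peak 10 (16474699 to 16475083), ATAC-seq gave 7.96 and 7.12 CPM in tumors, 29.8 and 27.4 CPM in Upd samples and 23.9, 26.5 and 39.4 CPM in wild types. FAIRE-seq tumors had 7.63 and 6.36 CPM, against 12.3 and 14.2 CPM in FAIRE-seq wild types. All tumors were below all wild types of their technique, and dac peak 10 fell by 1.55 ± 0.28 (adjusted p = 0.000602 with edgeR). The same table of the study pairs this peak with dac, so that its direction too is no independent evidence.

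At dac peak 15 (16482377 to 16482554), tumors had 2.15 and 2.55 CPM by ATAC-seq, against 10.7 and 9.26 CPM in Upd samples and 7.93, 13.6 and 17.5 CPM in wild types. In FAIRE-seq, 4.11 and 3.43 CPM in tumors stood against 7.25 and 8.31 CPM in wild types. Tumors and wild types did not overlap, and dac peak 15 fell by 1.82 ± 0.35 (adjusted p = 0.00107 with edgeR). Only 1 sample, an ATAC-seq wild type, had called dac peak 15, so its place among the merged peaks favours a fall. With FRT82 as the sole wild type strain of both techniques, dac peak 15 had a change of -1.38 and an adjusted p of 0.0139 with edgeR. It passed in the other 14 of 15 alternatives, and dac peaks 10 and 23 in all 15.

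The gain at dac peak 23 (16493623 to 16494187) was seen in both techniques. ATAC-seq tumors had 23.9 and 36.1 CPM, Upd samples 6.37 and 4.22 CPM and wild types 4.03, 5.43 and 2.95 CPM. By FAIRE-seq, tumors had 28.8 and 59.4 CPM at dac peak 23, against 12.0 and 14.8 CPM in wild types. Each tumor was above each wild type of its technique, and the late tumor was above the early one in both. Dac peak 23 rose by 2.30 ± 0.30 (adjusted p = 7.94e-05 with edgeR). It was called in 1 of 2 ATAC-seq tumors, in 1 of 2 FAIRE-seq tumors and in no wild type or Upd sample. It is thus among the merged peaks through tumors alone, which favours a rise, and the missing calls are no further support.

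A second place of higher ATAC-seq signal in the dac window was a run of 3 peaks, dac peaks 6 to 8, separated by 243 and 280 bp. At dac peak 7 (16469458 to 16469798), ATAC-seq tumors had 31.2 and 16.2 CPM, Upd samples 5.53 and 6.13 CPM and wild types 2.69, 5.30 and 3.60 CPM. FAIRE-seq gave 17.4 and 11.1 CPM at dac peak 7 in tumors, against 16.7 and 7.75 CPM in wild types. Its calls came from tumors alone, 2 of 2 by ATAC-seq and 1 of 2 by FAIRE-seq, which favours a rise. At dac peak 8 (16470079 to 16470317), ATAC-seq tumors had 19.8 and 10.8 CPM, Upd samples 5.70 and 9.81 CPM and wild types 6.99, 4.77 and 2.45 CPM. Dac peak 8 was called in 1 ATAC-seq tumor and 1 Upd sample and in no wild type, which favours a rise too. ATAC-seq tumors were above the wild types at both peaks, while the FAIRE-seq ranges overlapped. In the combined comparison neither passed, with 1.55 ± 0.44 for dac peak 7 (adjusted p = 0.0115 with edgeR) and 1.08 ± 0.37 for dac peak 8 (adjusted p = 0.0336 with edgeR). Dac peak 7 did pass without the FRT82 FAIRE-seq wild type or without the late FAIRE-seq tumor, which gave 2 dac peaks that rose in place of 1.

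Among the remaining dac peaks, dac peak 1 (16458330 to 16458778) had 13.1 and 12.3 CPM in ATAC-seq tumors, 19.3 and 20.8 CPM in Upd samples and 21.4, 17.0 and 21.9 CPM in wild types. Both tumors were lower, and the combined change of -0.69 ± 0.23 had an adjusted p of 0.0283 with edgeR. Apart from dac peaks 10, 15 and 23, no peak of the dac window passed in the combined comparison.

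Each technique was also tested alone. In ATAC-seq (2 tumors, 3 wild types), 6 eya peaks fell and 0 rose, and 2 dac peaks fell and 5 rose, where 12.8% of all merged peaks fell and 13.5% rose. The median log2 change was -0.82 over eya peaks, 0.09 over dac peaks and 0.00 over all merged peaks. The eya and dac peaks that fell were those of the combined comparison. Eya peak 8 fell by 3.00 ± 0.35 (adjusted p = 1.44e-05 with edgeR) and eya peak 7 fell by 2.07 ± 0.28 (adjusted p = 5.16e-05 with edgeR). The dac peaks that rose were peak 23 by 2.85 ± 0.33 (adjusted p = 1.18e-05 with edgeR), peak 7 by 2.60 ± 0.37 (adjusted p = 7.85e-05 with edgeR), peak 6 by 1.67 ± 0.41, peak 8 by 1.66 ± 0.41 and peak 16 by 0.74 ± 0.20. Of these, dac peak 6 (16469100 to 16469214) was low throughout, with 6.02 and 6.49 CPM in tumors against 2.55, 1.99 and 1.31 CPM in wild types. Only 1 sample, an ATAC-seq tumor, had called dac peak 6. No wild type had called dac peaks 6, 7, 8 and 23, so their place among the merged peaks favours a rise. Eya peaks 7 and 8 and dac peaks 7 and 23 passed in all 9 alternatives, and dac peak 16 in 2 of them.

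Leaving out 1 ATAC-seq library moved these counts. Without the late tumor, 2 eya peaks fell, 0 dac peaks fell and 2 dac peaks rose. Without the early tumor, 3 eya peaks fell, 1 dac peak fell and 2 dac peaks rose. Without the DGRP-208 or the Optix-GFP wild type, 5 and 9 eya peaks fell and 2 and 3 dac peaks rose. Eya peaks 7 and 8 fell and dac peaks 7 and 23 rose in each of these cases. With edgeR, 10 eya peaks had an unadjusted p under 0.05 in ATAC-seq, all with a negative change, beside 46.4% of all merged peaks, 23.3% with a negative one. DESeq2 likewise called 0 eya peaks higher.

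FAIRE-seq alone (2 tumors, 2 wild types) passed fewer peaks. Dac peak 23 rose, by 1.74 ± 0.33 (adjusted p = 0.00363 with edgeR), and 0 other dac peaks and 0 eya peaks passed, where 1.58% of all merged peaks rose and 0.781% fell. With edgeR, 4 eya and 5 dac peaks had an unadjusted p under 0.05, beside 24.2% of all merged peaks, and DESeq2 also called 0 eya peaks. Eya peak 7 had -1.54 ± 0.42 (adjusted p = 0.0298 with edgeR) and eya peak 12 had -1.48 ± 0.44 (adjusted p = 0.0429 with edgeR). Medians were -0.28 over eya peaks, -0.03 over dac peaks and 0.01 over all merged peaks. The eya median moved with single libraries, to -0.71 without the early tumor, -0.09 without the late tumor, -0.15 without FRT82 and -0.53 without CantonS. Without the late FAIRE-seq tumor dac peak 23 had a change of 1.11 (adjusted p = 0.193 with edgeR), and without the early FAIRE-seq tumor eya peaks 7, 13 and 14 fell.

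The change had the same sign in both techniques at 14 of 17 eya peaks (82.4%) and 19 of 25 dac peaks (76.0%), beside 74.9% of all merged peaks. The difference of the tumor effect between techniques, tested as an interaction, passed at 0 eya and 0 dac peaks with edgeR and with DESeq2, where edgeR passed 0.0110% of all merged peaks as higher in ATAC-seq and 0% as lower. At an unadjusted p under 0.05 there were 1 eya and 6 dac peaks, beside 17.3% of all merged peaks. Dac peak 7 had a difference, ATAC-seq minus FAIRE-seq, of 2.30 ± 0.60 (adjusted p = 0.055 with edgeR), eya peak 8 of -1.75 ± 0.54 (adjusted p = 0.092 with edgeR) and dac peak 16 of 0.88 ± 0.29 (adjusted p = 0.118 with edgeR). Whether the tumor effect differs between techniques at these peaks is thus not shown.

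**Figure D4:**
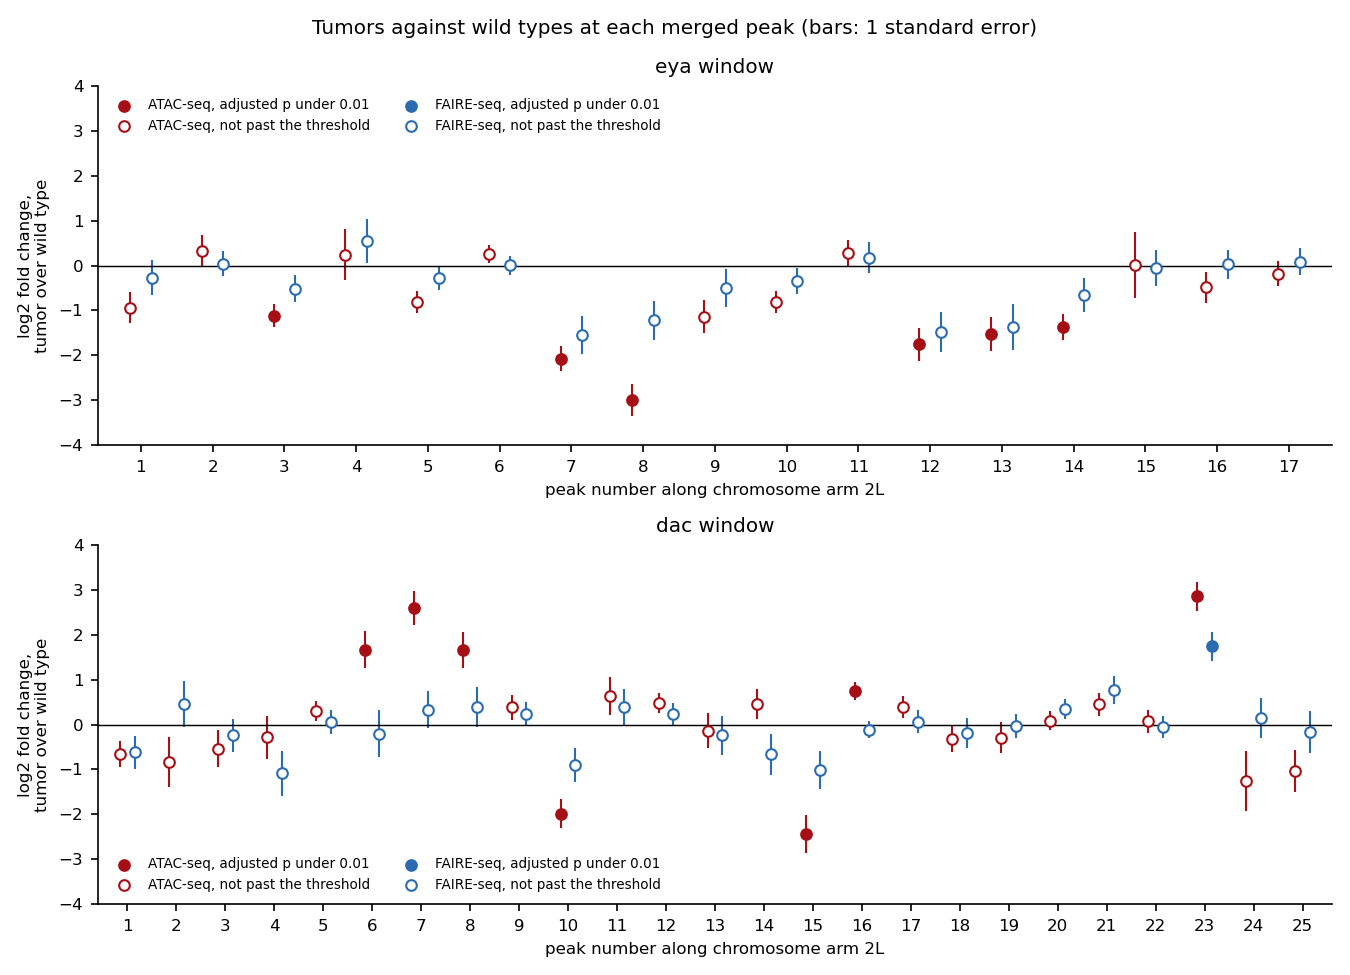
Log2 fold change of tumors over wild types for each peak, with bars of ± 1 SE, in ATAC-seq and in FAIRE-seq, and filled symbols for an adjusted p under 0.01. In ATAC-seq 6 eya peaks fell and 5 dac peaks rose, and in FAIRE-seq dac peak 23 alone is filled.

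The 2 tumor stages were set against wild types in a single model, again with a term for the technique. In early tumors, 1 eya peak fell and 0 rose, and 1 dac peak rose and 0 fell, where 2.86% of all merged peaks fell and 4.21% rose. These were eya peak 7 with -1.52 ± 0.32 (adjusted p = 0.00657 with edgeR) and dac peak 23 with 1.84 ± 0.32 (adjusted p = 0.00273 with edgeR). Eya peaks 8 and 12 had changes of -2.05 ± 0.48 and -1.60 ± 0.38 in early tumors and just missed the threshold (adjusted p = 0.0106 and 0.0116 with edgeR). At an unadjusted p under 0.05 with edgeR there were 7 eya peaks lower and 1 higher and 2 dac peaks lower and 4 higher, beside 17.1% of all merged peaks lower and 15.2% higher. DESeq2, added after the data were seen, called 3 eya peaks lower and 1 higher and 2 dac peaks lower and 3 higher, and 2305 of all merged peaks lower and 2958 higher. Medians in early tumors were -0.39 over eya peaks, 0.15 over dac peaks and -0.05 over all merged peaks.

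In late tumors, 7 eya peaks fell (7, 8, 9, 10, 12, 13 and 14) and 0 rose, and 3 dac peaks fell (3, 10 and 15) and 1 rose (23), where 8.52% of all merged peaks fell and 9.70% rose. DESeq2 called 0 eya peaks higher as well, and edgeR gave 10 eya peaks an unadjusted p under 0.05, all negative, beside 41.5% of all merged peaks, 22.0% negative. Medians were -0.91 over eya peaks, -0.00 over dac peaks and -0.04 over all merged peaks. Eya peak 7 had a late change of -2.28 ± 0.33 (adjusted p = 0.000343 with edgeR), eya peak 14 of -1.83 ± 0.27 (adjusted p = 0.000354 with edgeR) and dac peak 23 of 2.63 ± 0.31 (adjusted p = 0.000142 with edgeR). At dac peak 3 (16461302 to 16461879), wild types had 25.0, 38.8 and 24.4 CPM, the early tumor 31.2 CPM and the late tumor 10.2 CPM by ATAC-seq. By FAIRE-seq, wild types had 17.4 and 19.2 CPM, the early tumor 20.3 CPM and the late tumor 9.95 CPM at dac peak 3. The early tumor was within or above the wild types and the late tumor below all of them, and the late change was -1.24 ± 0.30 (adjusted p = 0.00622 with edgeR).

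A direct comparison of late and early tumors passed 0 eya and 0 dac peaks with edgeR, and 0% of all merged peaks in the direction of higher or of lower, with 1 sample per stage and technique. DESeq2 passed 0 of the 42 peaks as well. At an unadjusted p under 0.05 with edgeR there were 4 eya peaks and 1 dac peak, beside 4.11% of all merged peaks. The changes were -1.25 ± 0.29 for eya peak 14, -1.20 ± 0.26 for eya peak 11 and -1.32 ± 0.34 for dac peak 3, and dac peak 23 had 0.79 ± 0.38. With the late and early tumors fitted as a pair, without the wild types, edgeR passed eya peaks 11 and 14 and dac peak 3 as lower in late tumors, and 173 of all merged peaks as lower and 139 as higher. A difference between the stages at these 3 peaks thus depends on which samples enter the fit.

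**Figure D5:**
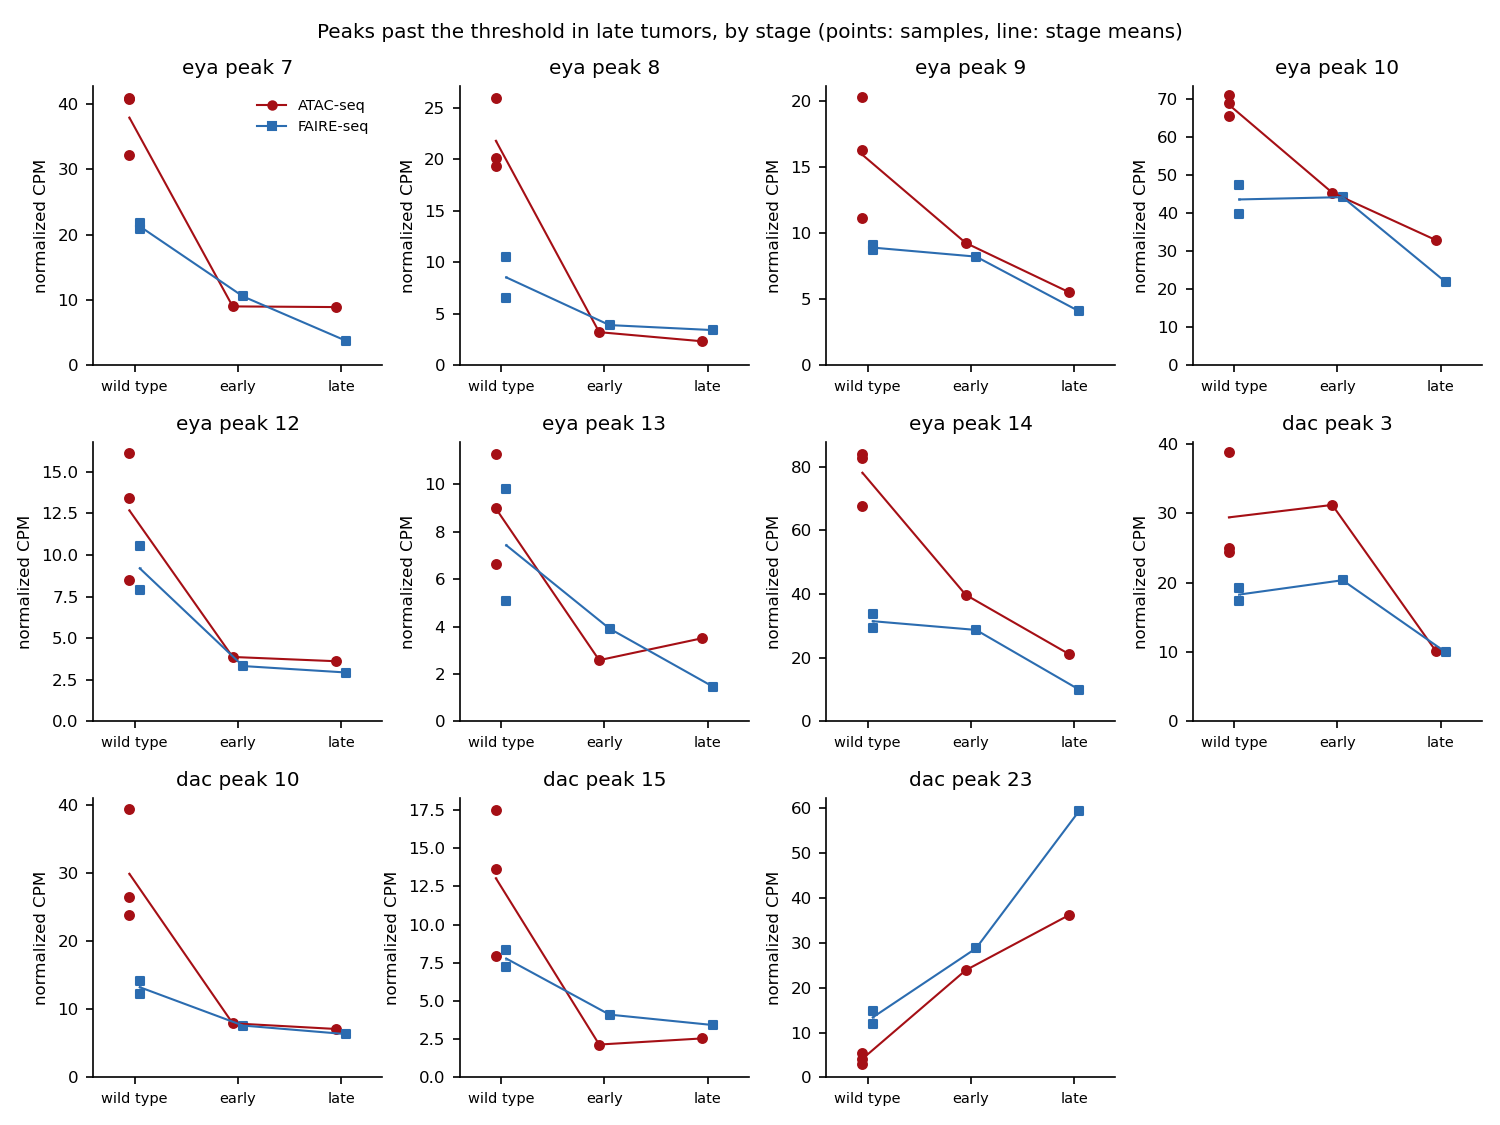
CPM of the 11 peaks past the threshold in late tumors, for wild types, early tumors and late tumors. Circles are ATAC-seq and squares FAIRE-seq samples, and lines join the means of each stage. Eya peak 14 and dac peak 3 are lower in the late than in the early tumor by both techniques, and dac peak 23 is higher.

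Upd discs, which also overgrow, were compared with wild types by ATAC-seq (2 samples against 3). With edgeR, 0 eya and 0 dac peaks passed, where 0.00548% of all merged peaks rose and 0.0110% fell. DESeq2 also passed 0 of the 42 peaks, and 0 eya and 2 dac peaks had an unadjusted p under 0.05 with edgeR, beside 7.06% of all merged peaks. Medians were -0.05 over eya peaks, 0.16 over dac peaks and -0.01 over all merged peaks. At the 6 eya peaks that fell in tumors, the Upd changes were -0.44 ± 0.23 for peak 3, 0.04 ± 0.23 for peak 7, -0.19 ± 0.25 for peak 8, -0.51 ± 0.32 for peak 12, -0.19 ± 0.31 for peak 13 and 0.11 ± 0.19 for peak 14. Both Upd samples were below all wild types at eya peak 3, and the ranges overlapped at the other 5. At the 3 dac peaks that changed in tumors, the Upd changes were -0.05 ± 0.26 for peak 10, -0.37 ± 0.33 for peak 15 and 0.35 ± 0.38 for peak 23. The smallest p-values were at low peaks, such as dac peak 4 (16462033 to 16462159) with 5.53 and 6.40 CPM in Upd samples against 2.15, 3.58 and 2.95 CPM in wild types, a change of 1.05 ± 0.36 (adjusted p = 0.573 with edgeR). Only the 2 Upd samples had called dac peak 4, which favours a rise. At eya peak 4 (6532375 to 6532493), called in 1 Upd sample only, Upd samples had 8.88 and 7.63 CPM and wild types 6.58, 3.97 and 0.982 CPM, a change of 1.08 ± 0.53 (adjusted p = 0.721 with edgeR). Both Upd samples lay below all wild types at 2 eya peaks and 1 dac peak (12.9% of all merged peaks) and above them at 2 eya and 6 dac peaks (12.1% of all merged peaks). Of the latter, eya peak 4 and dac peaks 2, 4 and 13 were called in Upd samples only. Their place among the merged peaks favours such a rise.

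The tumors were also set against the Upd discs by ATAC-seq (2 samples each). The fit also held the 3 ATAC-seq wild types as a group of their own, so they share in the estimate of the spread. Here 5 eya peaks fell (7, 8, 9, 10 and 14) and 0 rose, and 2 dac peaks fell (10 and 15) and 2 rose (7 and 23), where 12.7% of all merged peaks fell and 12.1% rose. The medians were -0.70 over eya peaks, 0.17 over dac peaks and -0.01 over all merged peaks. Eya peak 8 had -2.82 ± 0.33 (adjusted p = 1.51e-05 with edgeR), dac peak 10 had -1.95 ± 0.30 (adjusted p = 0.000136 with edgeR) and dac peak 23 had 2.50 ± 0.36 (adjusted p = 7.6e-05 with edgeR). At eya peak 9 (6545098 to 6545384), tumors had 9.25 and 5.53 CPM, against 17.3 and 24.4 CPM in Upd samples, a change of -1.56 ± 0.36 (adjusted p = 0.00313 with edgeR). Eya peaks 12 and 13 had adjusted p-values of 0.0141 and 0.0114 with edgeR. Tumors were used both here and against wild types, so these comparisons are not independent. Without the late tumor, 2 eya peaks and 1 dac peak fell, and without the first or the second Upd sample 3 eya peaks fell and 1 dac peak rose. Without the first Upd sample 1 dac peak fell, and without the early tumor 1 dac peak rose. DESeq2, like edgeR, called 0 eya peaks higher, and 9 eya peaks, all negative, had an unadjusted p under 0.05 with edgeR, beside 45.5% of all merged peaks, 23.5% negative.

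Summed over all peaks of a window, the levels moved apart. The 17 eya peaks together had 515.7 CPM in the early and 410.1 CPM in the late ATAC-seq tumor, 590.4 and 652 CPM in Upd samples and 679.7, 638 and 596 CPM in wild types. Summed over the 25 dac peaks, there were 1035 and 873 CPM in ATAC-seq tumors, 739 and 725 CPM in Upd samples and 717, 721 and 702 CPM in wild types. ATAC-seq tumors were below all wild types for eya and above them all for dac. Of the dac sums, dac peak 16 alone made up 456 and 344 CPM in tumors, against 260.1, 249 and 209.6 CPM in wild types. By FAIRE-seq, eya sums were 399 and 281 CPM in tumors against 427 and 397 CPM in wild types, and dac sums 627 and 618 CPM against 596 and 596 CPM. In FAIRE-seq the early tumor thus lay within the wild type range for eya, and both tumors above the wild types for dac. Dac peak 16 itself was lower in both FAIRE-seq tumors than in both FAIRE-seq wild types.

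The techniques themselves differed at several peaks in wild type discs (3 ATAC-seq and 2 FAIRE-seq samples). In ATAC-seq, 5 eya peaks (5, 6, 8, 11 and 14) and 1 dac peak (10) were higher and 1 eya peak (15) and 3 dac peaks (7, 19 and 23) lower than in FAIRE-seq, where 9.94% of all merged peaks were higher and 13.2% lower. At eya peak 15 (6557222 to 6557335), ATAC-seq wild types had 0.940, 0.927 and 0.164 CPM, against 9.42 and 7.32 CPM in FAIRE-seq wild types, a difference of -3.52 ± 0.53 (adjusted p = 0.000174 with edgeR). ATAC-seq tumors had 0.645 and 0.744 CPM there and FAIRE-seq tumors 7.24 and 8.16 CPM, so this peak was near 0 in each ATAC-seq sample, with 1 to 7 reads. At dac peak 19 (16491097 to 16491418), ATAC-seq wild types had 11.3, 7.28 and 14.2 CPM and FAIRE-seq wild types 28.6 and 35.2 CPM, a difference of -1.55 ± 0.31 (adjusted p = 0.00109 with edgeR). It lies 31 bp from dac peak 20, where the levels overlapped. Medians of the difference were 0.53 over eya peaks, -0.06 over dac peaks and -0.00 over all merged peaks. Without either FAIRE-seq wild type, eya peak 15 alone of the 42 passed. Without the FRT82 or the DGRP-208 ATAC-seq wild type, 1 and 3 eya peaks were higher in ATAC-seq, and without FRT82 eya peak 2 was also lower. Without Optix-GFP 0 dac peaks were higher.

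Peaks 15 and 19 are among those at CTCF sites. The CTCF ChIP-seq list of 3679 peaks holds 9 in the eya window and 2 in the dac window. They overlap 6 eya peaks (2, 3, 14, 15, 16 and 17) and 2 dac peaks (18 and 19) by at least 1 bp, where 8.19% of all merged peaks overlap a CTCF peak. Eya peaks 15, 16 and 17, with 112 and 62 bp between them, share a single CTCF peak. Of the 8 peaks, eya peaks 3 and 14 fell in tumors and the other 6 did not pass, where 12.5% of all merged peaks fell. These were the 2 least stable of the eya calls, passing in 8 and 5 of 15 alternatives. At eya peak 2 (6526962 to 6527448), ATAC-seq tumors had 28.8 and 16.9 CPM, Upd samples 17.1 and 21.4 CPM and wild types 24.9, 19.2 and 10.3 CPM, with a combined tumor change of 0.16 ± 0.27. At eya peak 17 (6557706 to 6557913) ATAC-seq gave 16.8 and 18.4 CPM in tumors, 18.3 and 20.3 CPM in Upd samples and 18.9, 17.4 and 24.1 CPM in wild types. At eya peak 16 (6557448 to 6557643), tumors had 11 and 10.8 CPM, Upd samples 10.2 and 11.6 CPM and wild types 11.8, 11.5 and 22.9 CPM. At these 3 peaks the ATAC-seq tumor or Upd values lay among or close to those of the wild types. At dac peak 18 (16487668 to 16487817), ATAC-seq tumors had 12.3 and 14.1 CPM and Upd samples 10.1 and 13.1 CPM, against 15.6, 14.2 and 20.1 CPM in wild types. By FAIRE-seq, tumors had 15.5 and 13.7 CPM there, against 18.5 and 15.9 CPM in wild types. Tumors were thus below all wild types of their technique, as at 18.3% of all merged peaks. The Upd samples were below the ATAC-seq wild types, as at 12.9%. The combined tumor change of -0.30 ± 0.21 did not pass.

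Peaks elsewhere whose levels varied most like the summed eya peaks over the 11 samples, each technique set to its own mean, lay at 2865076 to 2866148 and 17927678 to 17928059 on 3L (Pearson's r of 0.987 and 0.984) and 5585417 to 5586262 on 2R (r of 0.983), among 36392 peaks searched. For the summed dac peaks they lay at 21935451 to 21935887 on 2L (r of 0.986), 22749360 to 22749779 on 3L (r of 0.985) and 2476381 to 2476524 on 2L (r of 0.983). These values describe the samples, which share libraries and groups.

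Other genes of eye development give the surroundings of these results. Around so, 1 of 6 peaks fell and 0 rose in the combined comparison, and around Optix, a homeobox gene of the same family, 0 of 7 fell and 1 rose, where 12.5% of all merged peaks fell and 11.6% rose. The so peak (2R, 3312336 to 3312928) had -1.87 ± 0.32 (adjusted p = 0.000508 with edgeR) and the Optix peak, the second one on its enhancer (2R, 3925690 to 3926128), had 2.15 ± 0.29 (adjusted p = 0.000101 with edgeR), with 48.0 to 51.6 CPM in ATAC-seq tumors, 5.53 to 9.54 CPM in Upd samples and 5.91 to 8.84 CPM in wild types. The study's table pairs 6 regions with so, twin of eyegone (toe), eyegone (eyg), nemo (nmo), homothorax (hth) and glass (gl), and 5 of them fell, all but that of eyg (-0.91, adjusted p = 0.0183 with edgeR). The so region is the so peak given above and is counted in both places. All 6 regions were chosen by the study on these samples, so their direction is not independent evidence. In the comparison of Upd with wild types, 0 of these 6 regions passed.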

How the data were processed

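Open chromatin was measured in 11 samples of eye-antennal discs, of which 7 are ATAC-seq and 4 FAIRE-seq samples. The authors mapped reads with bowtie2 to FlyBase release 5 (dm3), ran MACS2 on every sample, merged the peaks and counted reads per merged peak with HTSeq. Base calling used CASAVA 1.8.2 per the submitters' processing notes. The deposited table holds raw counts without normalization, and the deposited peak lists hold positions alone, with no score. Replicates were not pooled.

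The tests used edgeR 4.0.16 under R 4.3.3, with TMM scaling, a robust quasi-likelihood fit and a threshold of 0.01. Benjamini-Hochberg adjustment covered every merged peak that had reads, and the scripts were tested on simulated data. Depth in merged peaks was 2375435 to 10871706 reads, and pairs of samples within a group differed by more than sampling noise (chi-square per degree of freedom 2.85 to 12.0). The Upd pair, of the same genotype, had 2.85, and the wild type pairs, each of separate strains, had 4.23 to 12.0. Reads carry no molecular identifiers, so counting error is only part of the spread. Alternatives were DESeq2 1.42.0, other scalings, a minimum mean count of 10, no technique term, FRT82 wild types only, stages fitted in pairs, other overlaps and leaving out each sample. Figures used matplotlib 3.10.9 and tables pandas 2.3.3. Likeness between peaks used log2(CPM + 1).

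Peaks were named by rule: in each window the 6 with the smallest p in the combined comparison, the 3 highest in ATAC-seq wild types, the one with the smallest p for Upd, those that overlap CTCF peaks by at least 1 bp and those that a table of the study pairs with the gene. Eya peaks 9, 10 and 11 and dac peaks 3, 6 and 17 were named after their values were seen. The members and lists were chosen with earlier results of these data known. Gene names and order came from RefSeq (Release 6), with none of its coordinates. Positions count from 1. Sequences, motifs and exons were not analysed here.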

Additional observations from a re-analysis of the deposited data

How the results depend on the processing

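Depth of 2375435 to 10871706 reads per sample and 1 to 3 samples per group limit what could be detected, above all for peaks with few reads and for stages, which have 1 sample per technique. In the combined comparison, the peaks that rose around dac numbered 2 with DESeq2 size factors and 2 with the DESeq2 test, 3 eya peaks fell without the technique term and 1 dac peak fell with FRT82 wild types only. With RLE scaling, the median of all merged peaks moved to 0.05, and 4891 peaks rose and 3947 fell, against 4226 and 4545 with TMM. Stages fitted in pairs gave 2 eya peaks lower in early tumors, and 2 eya peaks and 1 dac peak lower in late than in early tumors. DESeq2, added after the data were seen, gave 1 eya peak higher, 3 lower, 3 dac peaks higher and 2 lower in early tumors. Requiring a CTCF overlap of 40% or 80% left 3 eya peaks each time, and 80% left 1 dac peak. Leaving out 1 sample gave these ranges. For the combined comparison, 3 to 9 eya peaks fell, 1 to 2 dac peaks rose and 2 to 2 fell. For ATAC-seq, 2 to 9 eya peaks fell, 2 to 4 dac peaks rose and 0 to 2 fell. For FAIRE-seq, 0 to 3 eya peaks fell and 0 to 1 dac peaks rose. For Upd against wild types, 0 to 0 changed. For tumor against Upd, added after the data were seen, 2 to 7 eya peaks fell, 1 to 2 dac peaks rose and 1 to 2 fell. For ATAC-seq against FAIRE-seq, also added then, 0 to 5 eya peaks were higher and 1 to 2 lower, and 0 to 1 dac peaks were higher and 0 to 3 lower. The balance around eya turned there, with 0 peaks higher and 1 lower without either FAIRE-seq wild type and 1 higher and 2 lower without the FRT82 ATAC-seq wild type, against 5 higher and 1 lower with all samples. Leaving out 1 sample also moved the dac median across 0, to between -0.06 and 0.12 in the combined comparison and between -0.10 and 0.11 in FAIRE-seq, and the eya median for Upd to between -0.14 and 0.04. No paired analysis was possible because the replicate numbers were given in order within each group, and FRT82 is the one wild type strain that both techniques share.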
